A study of Mus musculus with 8 samples.

Results

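The costimulatory and inhibitory receptors described here are Cd28, Icos, Ctla4, Pdcd1, Lag3, Btla, Cd5 and Cd69. They were taken by gene symbol, and 11 probe sets carried 1 of these 8 symbols alone, out of 45037 probe sets that were not array controls and 18193 gene symbols. RNA was measured on Affymetrix arrays in cultures of naive CD4 T cells from mouse spleen, of the C57BL/6J strain, sorted for low CD44, high CD62L and no CD25 to a purity over 98%. All cultures received plate-bound antibody to CD3e and soluble antibody to CD28 (1 ug/ml each), IL-2 (10 ng/ml) and blocking antibodies to IFN-g and IL-4 (10 ug/ml each) for 24 h, with TGF-b at 2 ng/ml or without it. CD28, 1 of the 8 receptors, was therefore itself engaged by antibody on every array. The genotypes were Smad2KO, in which Smad2 is deleted conditionally in T cells, Smad3KO, Smad2KO_Smad3het, in which Smad2KO cells also carry 1 Smad3 knockout allele, and WT, which carries neither deletion. The submitters used Smad2KO_Smad3het in place of cells lacking both Smads, whose naive cells were difficult to collect. Each genotype had 1 array with TGF-b and 1 without, 8 in all. No combination was repeated, and no label says that the cultures came from different animals, so every p-value below measures the spread between these cultures alone. For the mean response to TGF-b the genotypes stood in as replicates, so a response that differed between them counted as spread.

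A T cell needs a signal through its antigen receptor and a further one through a costimulatory receptor to be fully activated. CD28 gives that further signal when it binds CD80 or CD86, and ICOS, a relative of CD28, appears on activated cells and binds ICOS ligand. CTLA-4 binds the same ligands as CD28 and restrains the cell, PD-1 (the product of Pdcd1), LAG-3 and BTLA restrain it through ligands of their own, and CD5 damps antigen receptor signalling. CD69 appears soon after activation and holds cells in the tissue. TGF-b restrains the activation of naive CD4 T cells and, together with antigen receptor signalling, induces Foxp3. Its receptor acts through Smad2 and Smad3, and the comparisons ask whether the receptors respond differently when either is missing.

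Both Smad2KO_Smad3het arrays differed widely from the remaining 6. Rank correlations over all probe sets were 0.66 to 0.693 between them and the other arrays, against 0.907 to 0.928 among the other 6, and their scaled median signals were 90.9 and 88.0, against 26.2 to 30.4. Summed markers of other cells were higher there, though not every single marker was. The summed scaled signal of 8 myeloid and dendritic markers was 2700.2 to 3009 on the Smad2KO_Smad3het arrays, where 6 of 8 were at least 2 times the floor described below, against 151 to 235 on the other 6, where 0 or 1 was. B cell markers summed to 485 to 934, against 40.2 to 66.4, and Cd8a with Cd8b1 to 1049 to 1347, against 58.1 to 137. Cd8b1 by itself read 11.3 and 134.5 with and without TGF-b in Smad2KO_Smad3het. The B cell marker Ms4a1 and the myeloid marker Cd68 lay there within the range of the other 6 arrays. Of 3 NK cell markers 2 or 3 were bright there and 0 on the other 6 arrays, and 0 of 2 erythroid markers were bright on any array. Of all probe sets that were not controls, 62.8% and 62.2% were bright on the Smad2KO_Smad3het arrays with and without TGF-b. On the other 6 arrays 39.3% to 40.6% were, so the marker counts lie beside a general rise in bright probe sets. The defining CD4 T cell markers (Cd3d, Cd3e, Cd3g, Cd4 and Cd247) were bright on every array, with sums of 8489 to 9597 on the Smad2KO_Smad3het arrays and 12109 to 13284 on the others. Tests therefore used the 6 arrays of Smad2KO, Smad3KO and WT, and values with all 8 arrays are given beside them. Smad2 had scaled signals of 891 and 983 with and without TGF-b in Smad2KO, and 878 and 909.8 in WT, and Smad3 had 622 and 523 in Smad3KO, and 467 and 127 in WT. The sources used here do not say whether these probe sets lie in the deleted parts, so these levels do not check the labels.

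All 11 receptor probe sets passed the filter on low values, at least 2 times a floor. The deposited intensities were scaled to a common trimmed mean, and the floor, the median scaled signal of the 6 arrays, was 27.7. The lowest receptor value on these 6 arrays was 172, for Lag3, at 6.22 times the floor, and the lowest values of the other 10 probe sets were 19.6 to 181 times the floor. Icos had 3 probe sets and Cd28 had 2, and the other receptors had 1 each. A probe set's brightness depends on its own probes, so levels are compared between arrays and never between probe sets. In these cultures a higher signal may mean more RNA per cell or more cells that carry the RNA, which cannot be told apart.

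**Figure D1:**
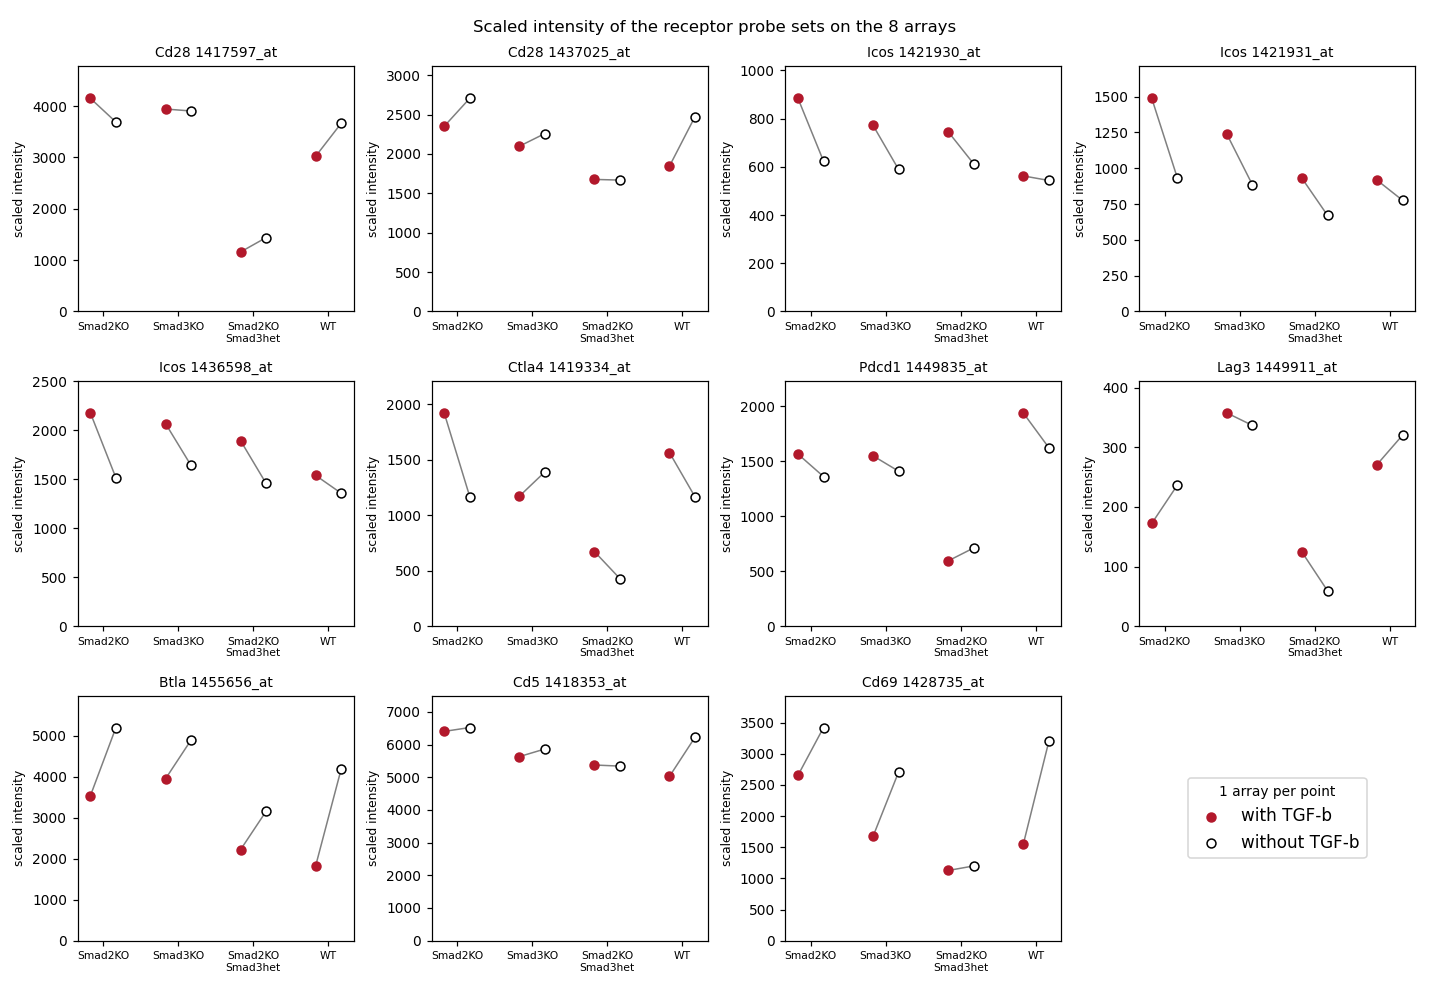
Scaled intensity (linear axis from 0) of the 11 probe sets of the 8 receptors, 1 panel each, with filled points for arrays with TGF-b and open points for arrays without it, joined within Smad2KO, Smad3KO, Smad2KO_Smad3het and WT. Every point is 1 array. Btla and Cd69 lie lower with TGF-b in all 4 genotypes, the 3 Icos probe sets lie higher in all 4, and Ctla4 lies higher in all but Smad3KO.

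Of the costimulatory receptors, Icos was called higher with TGF-b and Cd28 was not called. The brightest Icos probe set (1436598_at) gave 2176 and 1513 with and without TGF-b in Smad2KO, 2068 and 1640.1 in Smad3KO, 1892 and 1456 in Smad2KO_Smad3het, and 1538 and 1356 in WT. Icos was thus higher with TGF-b in each of the 4 genotypes, with log2 ratios of 0.52 in Smad2KO, 0.33 in Smad3KO, 0.38 in Smad2KO_Smad3het and 0.18 in WT. The WT value with TGF-b lay below the Smad3KO value without it, so the treated and untreated arrays overlapped. The mean log2 response over Smad2KO, Smad3KO and WT was 0.35 (SE 0.0826, limma adjusted p = 0.024, higher in 3 of 3 genotypes). The rise on this probe set ran from 1.13-fold in WT to 1.44-fold in Smad2KO. Over all probe sets bright on both arrays of a genotype, the median absolute log2 ratio was 0.23 in WT, 0.19 in Smad2KO and 0.15 in Smad3KO. The Icos ratio lay below that median in WT, and above it in Smad2KO and in Smad3KO.

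The other 2 Icos probe sets, which were designed to 1 shared sequence record and so are not independent, gave the same direction. Icos 1421931_at read 1488 and 933 with and without TGF-b in Smad2KO, 1238 and 884 in Smad3KO, 929.7 and 671 in Smad2KO_Smad3het, and 917 and 776 in WT. Its mean response was 0.47 (SE 0.0946, limma adjusted p = 0.011), and it rose. Icos 1421930_at read 884 and 624 in Smad2KO, 772 and 589 in Smad3KO, 746 and 612 in Smad2KO_Smad3het, and 562.5 and 544 in WT, also with TGF-b first. Its mean response of 0.31 (SE 0.104) did not pass the threshold with limma (adjusted p = 0.0902). On all 3 probe sets the ratio was largest in Smad2KO and smallest in WT. With all 8 arrays the mean responses were 0.47 for 1421931_at and 0.35 for 1436598_at, and neither passed with limma (adjusted p = 0.143 and 0.163). Without the Smad2KO arrays they were 0.36 and 0.26, and neither passed (limma adjusted p = 0.178 and 0.3).

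Cd28 had ratios of both signs. Its brightest probe set (1417597_at) gave 4151 and 3689 with and without TGF-b in Smad2KO, 3943 and 3905 in Smad3KO, 1159.9 and 1439.5 in Smad2KO_Smad3het, and 3025 and 3667 in WT. The log2 ratios were 0.17 in Smad2KO, 0.01 in Smad3KO, -0.31 in Smad2KO_Smad3het and -0.28 in WT, and so fell on both sides of 0. The mean over Smad2KO, Smad3KO and WT was -0.03 (95% interval -0.23 to 0.16, limma adjusted p = 0.859). The other Cd28 probe set (1437025_at) had log2 ratios of -0.20 in Smad2KO, -0.11 in Smad3KO, 0.01 in Smad2KO_Smad3het and -0.42 in WT, with a mean of -0.24 (limma adjusted p = 0.083). The Cd28 probe sets also disagreed on the Smad2KO_Smad3het level: 1417597_at was lower than in WT by 1.38 and 1.35 on the log2 scale with and without TGF-b, and 1437025_at by 0.14 and 0.57.

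**Figure D2:**
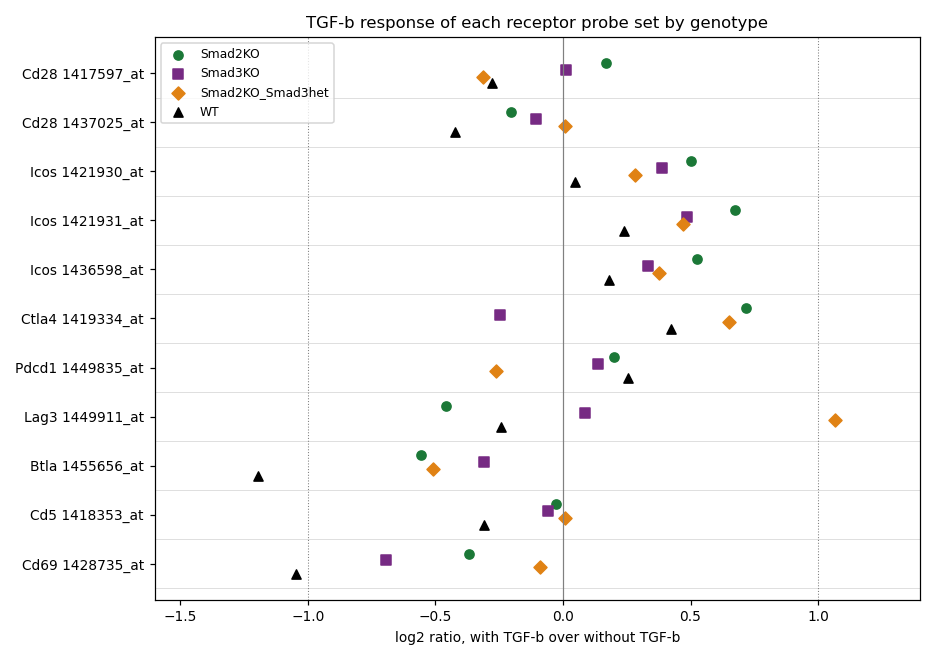
Log2 ratio of scaled intensity, with TGF-b over without it, for each receptor probe set (rows) in each genotype (symbols: Smad2KO, Smad3KO, Smad2KO_Smad3het and WT), 1 pair of arrays per symbol, with dotted lines at a 2-fold change. Btla and Cd69 in WT (-1.20 and -1.05) and Lag3 in Smad2KO_Smad3het (1.07) lie past the dotted lines, and Ctla4 in Smad3KO (-0.25) lies opposite to Ctla4 in the other 3 genotypes.

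Among the inhibitory receptors, Btla was lower with TGF-b in every genotype, with the lowest ratio in WT. BTLA is an immunoglobulin-family receptor that binds HVEM. Btla gave 3539 and 5205 with and without TGF-b in Smad2KO, 3953 and 4899.7 in Smad3KO, 2224 and 3161 in Smad2KO_Smad3het, and 1833 and 4198 in WT. On the 6 arrays of Smad2KO, Smad3KO and WT, every array with TGF-b lay below every array without it. The log2 ratios were -0.56 in Smad2KO, -0.31 in Smad3KO, -0.51 in Smad2KO_Smad3het and -1.20 in WT, the last a 2.29-fold lower level. The mean over the 3 genotypes tested was -0.69 (SE 0.167, lower in 3 of 3) and did not pass with limma (adjusted p = 0.064). It passed without the WT arrays, at -0.43 (adjusted p = 0.0105), without the Smad3KO arrays, at -0.88 (adjusted p = 0.00873), and with each array centred on its median, at -0.67 (adjusted p = 0.0247), and in no other setting tried.

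Ctla4 had a ratio below 0 in Smad3KO and above 0 in the other 3 genotypes. It gave 1921 and 1168 with and without TGF-b in Smad2KO, 1169.6 and 1389 in Smad3KO, 672 and 428 in Smad2KO_Smad3het, and 1563 and 1164 in WT. The log2 ratios were 0.72 in Smad2KO, -0.25 in Smad3KO, 0.65 in Smad2KO_Smad3het and 0.42 in WT. The level with TGF-b in Smad3KO was thus close to the untreated levels of Smad2KO and WT, and the untreated level in Smad3KO was the highest of the untreated arrays. The mean response over the 3 genotypes was 0.30 with an SE of 0.181 (limma adjusted p = 0.379). Without the Smad3KO arrays it was 0.57 (limma adjusted p = 0.000983), a fit on 2 genotypes alone.

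Pdcd1 and Lag3 gave no call. Pdcd1, which encodes PD-1, read 1565 and 1361 with and without TGF-b in Smad2KO, 1549 and 1409 in Smad3KO, 593 and 711 in Smad2KO_Smad3het, and 1939 and 1623 in WT. Its log2 ratios of 0.20, 0.14 and 0.26 in Smad2KO, Smad3KO and WT had a mean of 0.20 ± 0.0602 (SD, n = 3) and did not pass with limma (adjusted p = 0.125). The Smad2KO_Smad3het ratio was -0.26. Lag3, which encodes a CD4-like receptor for MHC class II, read 172 and 236 in Smad2KO, 358 and 337 in Smad3KO, 124 and 59.4 in Smad2KO_Smad3het, and 271 and 321 in WT, again with TGF-b first. Its direction differed between genotypes, with log2 ratios of -0.46 in Smad2KO, 0.09 in Smad3KO, 1.07 in Smad2KO_Smad3het and -0.24 in WT, and its mean over Smad2KO, Smad3KO and WT was -0.20 (limma adjusted p = 0.372). The 2.09-fold higher Lag3 level in Smad2KO_Smad3het rests on a value of 59.4, near the floor of 41.9 that 8 arrays give. That value also lies below the median of its own array, 88.0.

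Ctla4 had a response that differed in direction, Btla had the lowest ratio, and Pdcd1 had the closest ratios over Smad2KO, Smad3KO and WT. The sequences before the start sites of these genes are shown for reference. They are RefSeq windows on GRCm38.p6, from 250 bases before to 50 bases after the annotated start, and the table held 4 of the 8 receptors. The windows are chr1:60908775-60909074 on the plus strand for Ctla4, chr16:45224087-45224386 on the plus strand for Btla, and chr1:94052504-94052803 on the minus strand for Pdcd1. Each is written 5′ to 3′ on the gene's strand, with capitals where CAGAC, a core recognised by Smad proteins, or GGAAA, a core recognised by NFAT proteins, occurs on either strand. These motifs do not overlap each other in these windows.
Ctla4 promoter: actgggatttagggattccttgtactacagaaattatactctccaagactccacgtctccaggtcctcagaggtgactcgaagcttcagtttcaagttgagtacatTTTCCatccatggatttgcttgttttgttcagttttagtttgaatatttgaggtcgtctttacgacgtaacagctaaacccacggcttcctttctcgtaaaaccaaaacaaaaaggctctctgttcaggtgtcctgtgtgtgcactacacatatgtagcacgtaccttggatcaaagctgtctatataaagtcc
Btla promoter: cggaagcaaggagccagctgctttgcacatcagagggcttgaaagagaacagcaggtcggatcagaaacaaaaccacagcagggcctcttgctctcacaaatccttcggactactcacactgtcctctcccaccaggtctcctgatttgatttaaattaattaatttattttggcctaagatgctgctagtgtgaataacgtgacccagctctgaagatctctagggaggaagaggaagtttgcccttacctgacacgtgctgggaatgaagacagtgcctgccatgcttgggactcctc
Pdcd1 promoter: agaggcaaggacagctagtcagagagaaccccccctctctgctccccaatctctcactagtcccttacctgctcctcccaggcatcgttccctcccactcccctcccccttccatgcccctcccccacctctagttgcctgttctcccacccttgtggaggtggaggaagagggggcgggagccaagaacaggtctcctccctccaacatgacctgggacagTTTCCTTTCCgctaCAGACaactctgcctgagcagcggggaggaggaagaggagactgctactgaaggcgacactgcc
CAGAC occurred in the Pdcd1 window once and not in the Ctla4, Btla or Cd5 windows, and 49.6% of 32851 promoter windows of the same length held it. GGAAA occurred 1 time in Ctla4, 2 times in Pdcd1 and 1 time in Cd5, not in Btla, and in 61.3% of all windows. A match is a description of the letters alone, and a window without one tells nothing about binding elsewhere.

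Cd69, the early activation marker, had the smallest p-value of the mean response among the receptors. It gave 2652 and 3419 with and without TGF-b in Smad2KO, 1675 and 2707 in Smad3KO, 1126 and 1199 in Smad2KO_Smad3het, and 1547 and 3196 in WT. The 3 arrays with TGF-b of Smad2KO, Smad3KO and WT all lay below the 3 without it. The log2 ratios were -0.37 in Smad2KO, -0.69 in Smad3KO, -0.09 in Smad2KO_Smad3het and -1.05 in WT, so Cd69 was 2.07-fold lower with TGF-b in WT. The mean response of -0.70 (SE 0.116, lower in 3 of 3 genotypes) passed with limma (adjusted p = 0.00752), and Cd69 fell. It also passed when WT, Smad2KO or Smad3KO was left out in turn. With all 8 arrays the mean was -0.55 and did not pass (limma adjusted p = 0.298). The calls of Cd69 and Icos were also lost without the filter on low values, without limma's trend and robust settings, and without the genotype block, with adjusted p of 0.0739 to 0.121 for Cd69 and 0.0952 to 0.196 for both Icos probe sets.

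Cd5, which damps antigen receptor signalling, read 6401 and 6519 with and without TGF-b in Smad2KO, 5629.8 and 5863 in Smad3KO, 5373 and 5339.9 in Smad2KO_Smad3het, and 5026 and 6223 in WT. The mean response over Smad2KO, Smad3KO and WT was -0.13 (95% interval -0.30 to 0.04, limma adjusted p = 0.329), and the WT ratio of -0.31 was the lowest of the 4.

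Over the 11 receptor probe sets, limma therefore called 2 higher (both Icos) and 1 lower (Cd69) with TGF-b, and 7 had an unadjusted p under 0.05. Of the 20147 probe sets tested, 5.93% were called higher and 3.49% lower, and 24.3% had an unadjusted p under 0.05. The 11 hold repeat probe sets of Icos and Cd28. With 1 probe set per gene, limma called 1 of 8 higher and 1 lower, and 4 had an unadjusted p under 0.05. Of all 9453 genes in that fit, 677 were called higher and 530 lower, and 2660 had an unadjusted p under 0.05. With all 8 arrays, limma called 0 of the 11 (5 at an unadjusted p under 0.05), against 0.0659% called higher, 0.0104% called lower and 11.9% at that unadjusted p of 28819. Groups with and without TGF-b did not overlap on the 6 arrays for 2 receptor probe sets, Btla and Cd69, both lower, against 13.3% of all tested probe sets higher and 11.6% lower. The median absolute log2 response was 0.30 over the receptor probe sets and 0.17 over all tested probe sets, and the plain medians were -0.03 and 0.00. In WT alone, 2 of 11 receptor probe sets were at least 2-fold lower with TGF-b and 0 were 2-fold higher, against 3.02% and 4.64% of bright probe sets. In Smad2KO and in Smad3KO 0 of the 11 were past 2-fold, against 1.54% lower and 3.64% higher in Smad2KO, and 0.785% lower and 2.1% higher in Smad3KO. In Smad2KO_Smad3het 1 of 11, Lag3, was past 2-fold and higher, against 14.4% of bright probe sets higher and 13% lower. The WT pair also had the wider scatter of these 3 genotypes, with a robust SD of log2 ratios over all bright probe sets of 0.34, against 0.28 in Smad2KO and 0.22 in Smad3KO. The 18S ribosomal RNA controls, 3 of them, had signals of 105 to 193 with TGF-b and 29.8 to 67.7 without it in Smad2KO, 609.6 to 849 and 747 to 2166 in Smad3KO, and 60.2 to 156 and 2226 to 3424 in WT, and their part in any ratio or difference given here was not tested. Without the WT arrays, the mean responses were -0.53 for Cd69 and -0.43 for Btla.

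**Figure D3:**
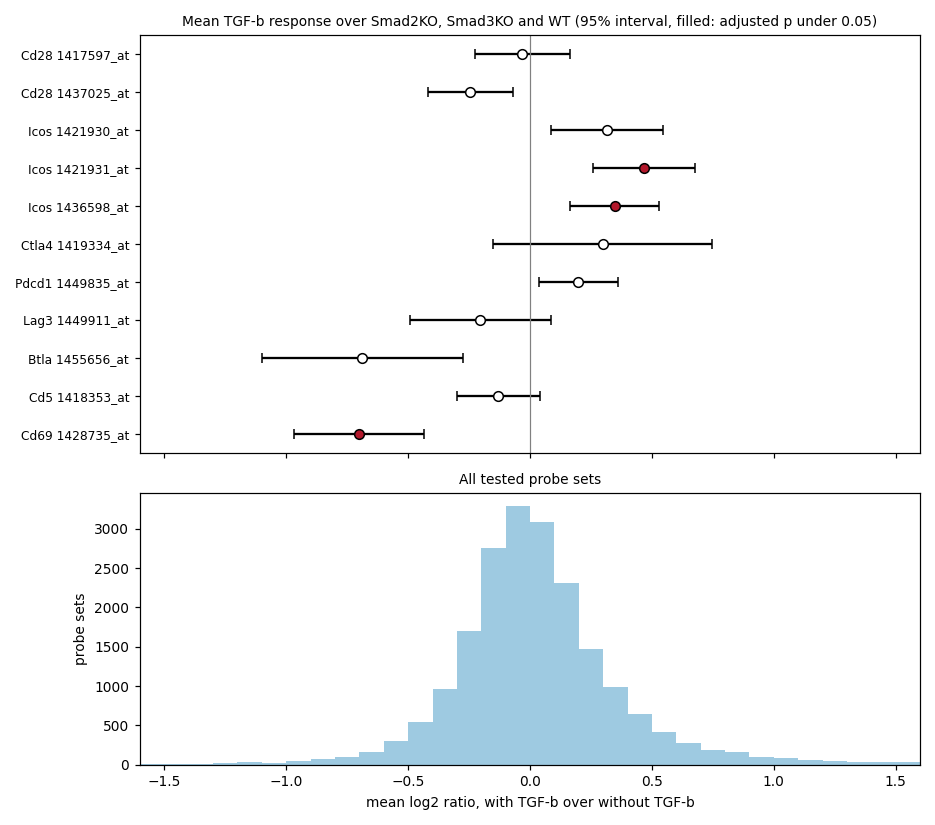
Upper panel, mean log2 response to TGF-b over Smad2KO, Smad3KO and WT for each receptor probe set, with 95% intervals from limma on 6 arrays and filled points where the adjusted p was under 0.05 (Icos 1421931_at, Icos 1436598_at and Cd69). Lower panel, number of tested probe sets in each range of the same mean response, cut at the upper panel's limits. Cd69 (-0.70) and Btla (-0.69) have the lowest means of the 11, at similar values but with a wider interval for Btla.

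The genotypes were next compared at the level of the receptors, with treatment as a block. With limma, 0 of 11 receptor probe sets passed for Smad2KO against WT, with 8 at an unadjusted p under 0.05, and 0.546% of 20147 probe sets were called higher, 0.412% lower and 9.8% were at that unadjusted p. The Btla level was higher in Smad2KO by 0.63 on the log2 scale (95% interval 0.12 to 1.14, adjusted p = 0.377), and the Icos levels by 0.33 to 0.48 (limma adjusted p = 0.236 to 0.101). Lag3 had a difference of -0.55 (limma adjusted p = 0.209) and Pdcd1 one of -0.28 (limma adjusted p = 0.261). For Smad3KO against WT, limma called 0 of 11, with 5 at an unadjusted p under 0.05, against 0.159% of all probe sets called higher, 0.213% lower and 10.3% at that unadjusted p. Btla again had the largest difference, 0.67 (95% interval 0.16 to 1.17, adjusted p = 0.357), and Pdcd1 had -0.26 (limma adjusted p = 0.328). Both comparisons share the WT arrays. For Btla the differences came mainly from the treated arrays: with TGF-b the log2 ratio was 0.95 for Smad2KO over WT and 1.11 for Smad3KO over WT, and without TGF-b it was 0.31 and 0.22. When each array was centred on its median, which moved the median difference over all probe sets to 0.15 for Smad2KO and 0.18 for Smad3KO, limma called 3 Icos probe sets higher in Smad2KO and 1 in Smad3KO.

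In Smad2KO_Smad3het, with 1 array a treatment and no test, several receptors lay well below WT. Relative to WT, the log2 ratio with TGF-b and without it was -1.71 and -1.19 for Pdcd1, -1.22 and -1.45 for Ctla4, -1.13 and -2.43 for Lag3, and -0.46 and -1.41 for Cd69. The untreated Lag3 value there (59.4) lay below the median of its array (88.0). Icos 1436598_at was at 0.30 and 0.10, Cd5 at 0.10 and -0.22, and Btla at 0.28 and -0.41. The lower CD4 T cell marker sum and the higher myeloid and B cell marker sums on these arrays, given above, moved with these values, and their part was not tested. The scaled medians of these arrays were 90.9 and 88.0, against 29.2 and 30.4 in WT, and the part of that difference was not tested either. Low levels were not particular to the receptors: Cd3d read 2717 and 2875 there with and without TGF-b, against 6000 and 5250 in WT. Cd3e went the other way, at 2539 and 2462 against 1935 and 2198 in WT.

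The last set of comparisons asked whether a TGF-b response differed between genotypes. Each was fitted on the 3 log2 ratios of Smad2KO, Smad3KO and WT, with 1 residual degree of freedom and the variance shared across probe sets. The Ctla4 response in Smad3KO was lower by 0.82 on the log2 scale than the mean of Smad2KO and WT (SE 0.178, 95% interval -1.20 to -0.44), with an unadjusted p of 0.000273 and a limma adjusted p of 0.12. It passed in 3 alternative settings: -0.83 with quantile normalization (adjusted p = 0.0356), -0.88 with arrays centred on their median (adjusted p = 0.00503), and -0.82 with 1 probe set per gene (limma adjusted p = 0.0292). Its call thus changed with the scaling and with the set of probe sets fitted, while its direction was the same in all settings tried. With the Smad2KO_Smad3het ratio added to those of Smad2KO and WT, it was -0.85 (limma adjusted p = 1). Btla had a difference of 0.57 (95% interval -0.05 to 1.18) and Lag3 of 0.44 (95% interval -0.11 to 0.98), neither past the threshold (limma adjusted p = 0.832 and 0.883). With limma 0 of the 11 passed, 1 had an unadjusted p under 0.05, and 0.0298% of 20140 probe sets were called with a higher response in Smad3KO and 0.104% with a lower one, and 6.15% had an unadjusted p under 0.05.

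For Smad2KO, limma called 0 of 11 response differences from the mean of Smad3KO and WT, with 2 at an unadjusted p under 0.05. These 2 were Ctla4, at 0.63 (95% interval 0.00 to 1.26), and Cd69, at 0.50 (95% interval 0.04 to 0.96), both with a limma adjusted p of 1. Of 20136 probe sets, 0 were called with a higher response in Smad2KO and 0.00497% with a lower one, and 2.5% had an unadjusted p under 0.05.

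Btla and Cd69 had their lowest ratios in WT, and the WT response was therefore set against the mean of Smad2KO and Smad3KO, a comparison chosen after these values were seen. The Btla response was lower in WT by 0.76 (SE 0.137, 95% interval -1.07 to -0.46), with an unadjusted p of 0.000244 and a limma adjusted p of 0.138. It passed with quantile normalization at -0.77 (adjusted p = 0.0393) and with arrays centred on their median at -0.70 (limma adjusted p = 0.0219). With the Smad2KO_Smad3het ratio added to the mutants, it was -0.74 (limma adjusted p = 0.996). Cd69 had -0.52 (95% interval -0.86 to -0.18, limma adjusted p = 0.394), Cd28 1417597_at -0.37 (limma adjusted p = 0.462) and Cd5 -0.27 (limma adjusted p = 0.583). With limma 0 of 11 passed, 4 had an unadjusted p under 0.05, and 0.0149% of 20102 probe sets were called with a higher response in WT and 0.0597% with a lower one, and 8.25% had an unadjusted p under 0.05.

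**Figure D4:**
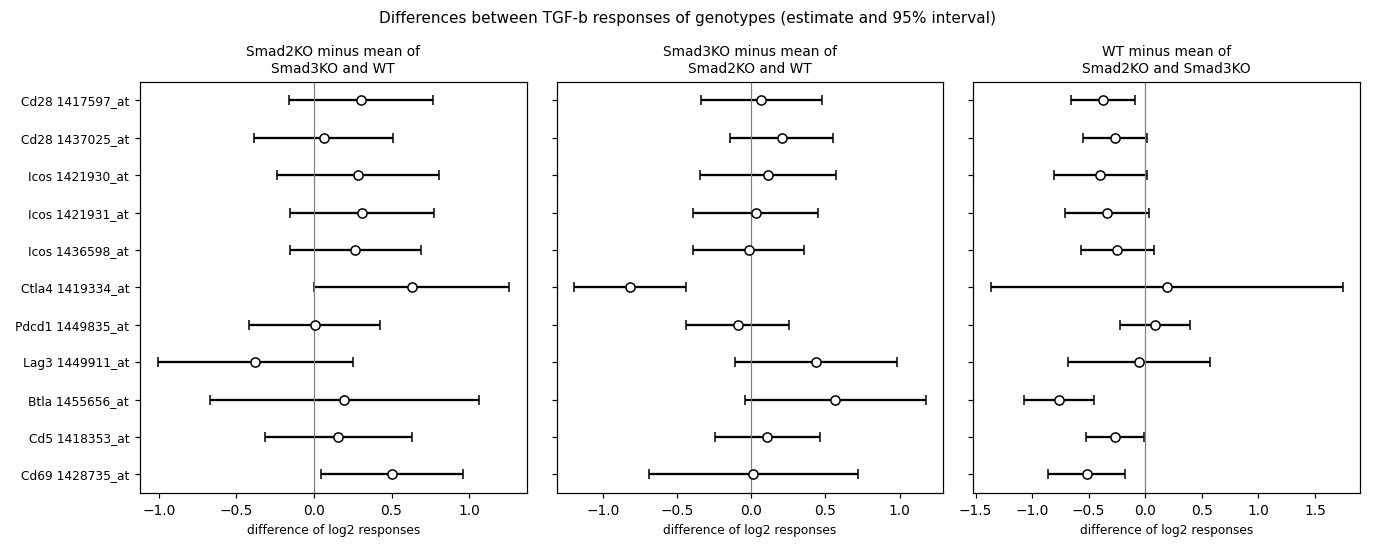
Differences between the log2 TGF-b responses of genotypes for each receptor probe set, with 95% intervals from limma on 3 ratios: Smad2KO minus the mean of Smad3KO and WT (left), Smad3KO minus the mean of Smad2KO and WT (middle) and WT minus the mean of Smad2KO and Smad3KO (right). No point passed the adjusted threshold; Ctla4 in the middle panel (-0.82) and Btla in the right panel (-0.76) lie farthest from 0.

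Other co-signalling receptors included genes with large responses in both directions. Of 24 other co-signalling receptors listed, 20 were read and 15 were bright on arrays of both treatments. Of these 15, limma called 3 higher and 5 lower with TGF-b on the 6 arrays, and 7 did not pass. Over all 20147 tested probe sets, limma called 5.93% higher and 3.49% lower. The median of the 15 was -0.16, against 0.00 over all tested probe sets. Tnfrsf25 (death receptor DR3) had the largest rise, with 748 and 212 with and without TGF-b in Smad2KO, 417 and 124.5 in Smad3KO, 696 and 471 in Smad2KO_Smad3het, and 1010.2 and 182 in WT. Its mean log2 response was 2.01 (SE 0.146, limma adjusted p = 2.81e-05). Slamf6, a receptor of the SLAM family, had the largest fall, and its values are given with TGF-b first. It read 369 and 1203 in Smad2KO, 306 and 877 in Smad3KO, 767 and 1301 in Smad2KO_Smad3het, and 249 and 1198 in WT. Its mean was -1.83 (SE 0.135, limma adjusted p = 4.95e-05). On the 6 arrays the treated and untreated values overlapped neither for Tnfrsf25 nor for Slamf6. The same held for 13.3% of all tested probe sets with higher treated values and 11.6% with lower ones. Crtam, an adhesion receptor of activated T cells, fell by 1.39 on the log2 scale (limma adjusted p = 0.000614). Cd2, which binds CD48 in the mouse, rose by 1.32 (limma adjusted p = 0.021), and Cd96, which binds CD155, by 1.00 (limma adjusted p = 0.000436). In Smad2KO_Smad3het, Cd96 went the other way, at 273 and 302 with and without TGF-b. Lair1, an inhibitory collagen receptor, was bright only with TGF-b and is given as values with no test: 88.2 and 53.3 with and without TGF-b in Smad2KO, 84.8 and 52.6 in Smad3KO, 84.1 and 46.6 in Smad2KO_Smad3het, and 141 and 46.4 in WT.

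Of 10 ligand genes of the 8 receptors, 2 were bright on arrays of both treatments. Both were called lower with TGF-b, against 3.49% of all tested probe sets. Cd274 and Pdcd1lg2 encode the PD-1 ligands PD-L1 and PD-L2. Cd274 read 524 and 835 with and without TGF-b in Smad2KO, 492 and 676 in Smad3KO, 479 and 596 in Smad2KO_Smad3het, and 436 and 759.8 in WT, and fell by 0.64 (SE 0.0977, limma adjusted p = 0.00215). Pdcd1lg2 fell by 0.65 (SE 0.084, limma adjusted p = 0.000731). Both PD-1 ligands were lower with TGF-b in all 4 genotypes, while Pdcd1 itself had ratios above 0 in 3 of 4. Cd72, reported as a ligand of CD5, and Lgals3, a galectin that binds LAG-3, were bright on the 6 arrays only with TGF-b, and so had to lie higher there; they are given as values with no test. Cd72 read 301 and 53.0 in Smad2KO, 346.5 and 49.0 in Smad3KO, 259 and 194 in Smad2KO_Smad3het, and 384 and 53.9 in WT. Lgals3 read 139.9 and 18.9 in Smad2KO, 96.6 and 9.41 in Smad3KO, 98.4 and 143 in Smad2KO_Smad3het, and 346 and 48.4 in WT, with TGF-b first. Cd72 is also a B cell gene and Lgals3 a myeloid gene, and on these 6 arrays 0 of 4 B cell markers and 0 or 1 of 8 myeloid markers were bright. The part of such cells in the Cd72 and Lgals3 signals was not tested.

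**Figure D5:**
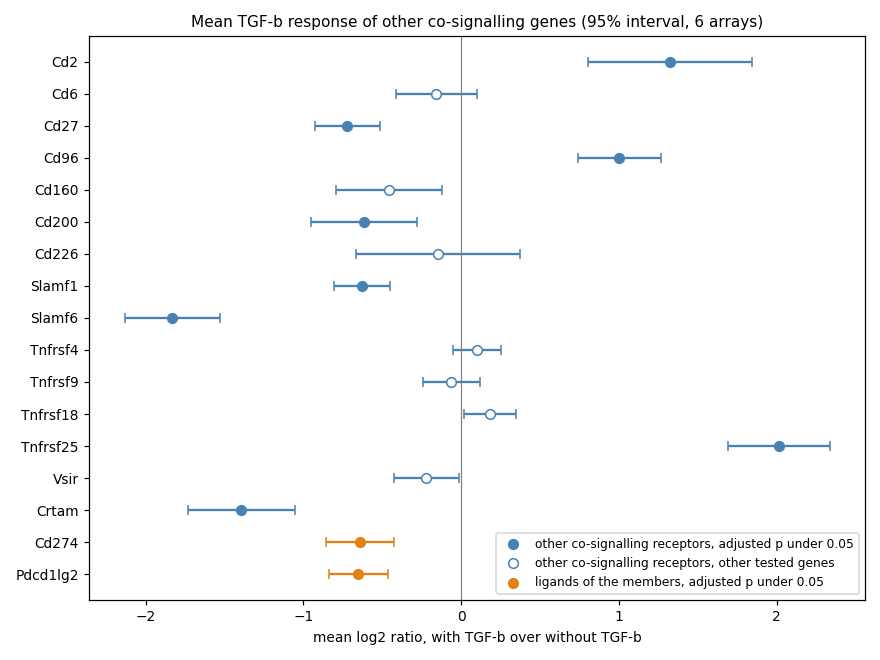
Mean log2 response to TGF-b over Smad2KO, Smad3KO and WT, with 95% intervals from limma on 6 arrays, for the co-signalling receptors outside the 8 that were bright on arrays of both treatments (blue, filled where the adjusted p was under 0.05) and the ligand genes that were (orange). Tnfrsf25 (2.01) lies farthest right and Slamf6 (-1.83) farthest left, and both PD-1 ligand genes lie left of 0.

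Among the kinases, adaptors and phosphatases that carry or damp these receptors' signals, 28 of 31 listed genes were read and tested. Limma called 6 higher, 2 lower and 20 neither, against 5.93% higher and 3.49% lower over all tested probe sets. Trat1, an adaptor of the antigen receptor complex, fell by 1.13 (limma adjusted p = 0.000338), and Lcp2, the adaptor SLP-76, fell by 0.32 (limma adjusted p = 0.0212). Grap2, an adaptor that joins LAT and SLP-76, rose by 1.04 (limma adjusted p = 0.00453), Pik3r1, a regulatory subunit of the PI3 kinase that CD28 and ICOS recruit, by 0.98 (limma adjusted p = 0.00254), Ubash3b, a phosphatase that damps antigen receptor signalling, by 0.88 (limma adjusted p = 0.000336), and Dgka, which removes diacylglycerol, by 0.47 (limma adjusted p = 0.00315). In Smad2KO_Smad3het, Grap2 went the other way, at 8.11 and 60.7 with and without TGF-b, the treated value under the floor. The other genes named from this list kept their direction there. The median of the 28 was 0.20.

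Of 21 listed transcription factors of receptor genes and T cell exhaustion, 20 were read and 16 were bright on arrays of both treatments. Of these 16, limma called 5 higher and 4 lower and 7 neither, against 5.93% higher and 3.49% lower over all tested probe sets. Maf and Foxp3 were bright on the 6 arrays only with TGF-b and are given as values with no test. Maf read 1697 and 8.94 with and without TGF-b in Smad2KO, 566 and 11.9 in Smad3KO, 135 and 28.0 in Smad2KO_Smad3het, and 2246 and 1.94 in WT, and Foxp3 read 245 and 21.05 in Smad2KO, 85.35 and 17.6 in Smad3KO, 184 and 76.8 in Smad2KO_Smad3het, and 342 and 2.36 in WT. The untreated values of both lay under the floor in Smad2KO, Smad3KO and WT, so no fold is given. Both genes had their smallest treated value of these 3 genotypes in Smad3KO. Klf2, a quiescence factor, rose by 1.85 (limma adjusted p = 0.000225), Foxo1, which acts upstream of Klf2, by 1.09 (limma adjusted p = 0.000105), Nfatc2 (the NFAT1 factor) by 0.84 (limma adjusted p = 0.00119), and Nr4a3, an orphan nuclear receptor induced by antigen receptor signalling, by 0.84 (limma adjusted p = 5.81e-05). With all 8 arrays, limma adjusted p ran from 0.0617 to 0.555 for the called genes named from these 4 lists, so their calls rest on the 6 arrays.

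By gene order in RefSeq, Cd28, Ctla4 and Icos are consecutive protein-coding genes on mouse chromosome 1, in that order. Icos rose, Ctla4 had opposite signs in Smad3KO and WT, and Cd28 was not called on either probe set, with means of -0.03 for 1417597_at and -0.24 for 1437025_at. Pdcd1 is on the same chromosome but has other neighbours. Lag3 and Cd4 are neighbours on chromosome 6. Btla is next to Cd200 on chromosome 16, and Cd200 had log2 ratios of -0.51 in Smad2KO, -0.28 in Smad3KO, 0.06 in Smad2KO_Smad3het and -1.06 in WT, and Btla, as given above, had its lowest ratio in WT as well. This pair was picked out after the values were seen. A lowest ratio in WT was not particular to it: Slamf6 (-2.27), Crtam (-1.86) and Cd69 (-1.05) also had theirs in WT. Pdcd1lg2 had its lowest in Smad2KO (-0.79). CD200 and BTLA are both immunoglobulin-family surface proteins.

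The genes with the profile most like each receptor were found by the root mean square difference of centred log2 values on the 6 arrays, among 9452 genes. The closest were Ubxn2a for Cd5 (0.0232), Scarb2 for Pdcd1 (0.0401), Miga1 for Cd28 (0.0555), Kifc1 for Lag3 (0.0703), Wdr6 for Icos (0.0774), Ipcef1 for Cd69 (0.0937), Plaat3 for Ctla4 (0.0978) and Slfn8 for Btla (0.108). Cd5 and Pdcd1, which have the closest matches, also vary little, over 0.375 and 0.511 log2 units on the 6 arrays, and Btla varies over 1.51. With 6 arrays, such likeness is a description of these arrays alone.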

How the data were processed

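The deposited table holds probe set intensities of Affymetrix Mouse Genome 430 2.0 arrays on a linear scale, as the authors deposited them, and the submitters' processing notes name GCOS 1.4, with no algorithm or scaling setting known here. Gene symbols came from the platform annotation: of 45101 probe sets, 64 were controls, 34945 had 1 symbol, 932 had several and 9160 were unnamed here.

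Each array was scaled to a common 2% trimmed mean. Values under the floor (27.7) were set to it, log2 was taken, and a probe set was tested if it reached 2 times the floor on any of the 6 arrays of Smad2KO, Smad3KO and WT. Tests used limma 3.58.1 in R 4.3.3 (trend and robust settings) with Benjamini-Hochberg adjustment over all tested probe sets and a threshold of 0.05. Mean responses had genotype as a block (2 residual degrees of freedom), levels had treatment as a block, and response differences were fitted on 3 log2 ratios (1 residual degree of freedom). Figures were drawn with matplotlib 3.10.9. The number of arrays limits the precision.

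Alternatives covered normalization, floor, filter, probe set choice, variance settings, block and arrays. The receptors and gene lists were chosen with earlier results of these data known. The probe set with the highest mean stood for each gene, list genes bright only on arrays of 1 treatment were left out of counts and tests in the text, and list genes past the threshold were named, at most 6 per list by size, together with the nearest profile of each receptor.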

Additional observations from a re-analysis of the deposited data

Results flagged for a closer look

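In 8 cases a receptor probe set responded to TGF-b in the opposite direction in a mutant and in WT, each with 1 pair of arrays per genotype. The values below are the mutant's log2 response minus that of WT, and these single differences were not tested. Ctla4 had -0.67 in Smad3KO, with responses of -0.25 in Smad3KO and 0.42 in WT. Its Smad3KO response set against the mean of Smad2KO and WT, given above, was tested and did not pass.

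Cd28 1417597_at had 0.45 in Smad2KO, with responses of 0.17 in Smad2KO and -0.28 in WT, and 0.29 in Smad3KO, where its own response was 0.01. Lag3 had 0.33 in Smad3KO, with responses of 0.09 in Smad3KO and -0.24 in WT.

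The other 4 cases were in Smad2KO_Smad3het, whose arrays stood apart from the rest: Cd28 1437025_at with 0.43, Pdcd1 with -0.52, Lag3 with 1.31 and Cd5 with 0.32. For Cd28 1437025_at and Cd5 the Smad2KO_Smad3het response itself was 0.01.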

How the results depend on the processing

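The mean response pairs the 2 arrays of each genotype through the genotype block. No further pairing by replicate number was possible because the labels give no replicate numbers. Of the values of all 11 receptor probe sets in 6 comparisons, 500 kept their direction and their side of the threshold under an alternative, 15 passed it newly, 17 no longer passed it and 22 changed sign; all 22 were of values that had not passed. Mean responses that changed sign were Lag3, at 0.1135 with 8 arrays and 0.0082 with 8 arrays and quantile normalization, and Cd28 1417597_at, at 0.0921 without WT. Of the Smad3KO levels, Cd5 was at -0.012 with quantile normalization and -0.0191 with 8 arrays and quantile normalization, Cd28 1437025_at at -0.0001 with the same 8-array setting, and Ctla4 at 0.0942 and Cd69 at 0.1134 with centring. The Smad3KO response differences were -0.0355 for Lag3, 0.0705 for Pdcd1 and -0.1914 for Cd69 with 8 arrays, 0.103 for Pdcd1, -0.1593 for Cd69 and -0.0245 for Icos 1421931_at with 8 arrays and quantile normalization, and -0.0436 for Cd69 and -0.0292 for Icos 1421931_at with centring. The Smad2KO response differences were 0.3813 for Lag3 and -0.226 for Pdcd1 with 8 arrays, and 0.1973 and -0.2479 with 8 arrays and quantile normalization. The WT response differences were 0.0032 for Lag3 with centring and -0.0098 for Ctla4 with 8 arrays and quantile normalization. The cause was not tested for any of the changes given here.

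The number of receptor probe sets called for the mean response, 3 on the 6 arrays, was 0 with 8 arrays (with and without quantile normalization), without the filter on low values, without trend and robust settings and without the genotype block. It was 5 without WT, 1 without Smad2KO and 6 without Smad3KO, fits with 1 residual degree of freedom. Centring arrays on their median gave 3 calls in place of 0 for the Smad2KO level, 1 for the Smad3KO level, 1 for the Smad3KO response difference, 1 for the WT response difference, 1 in place of 2 for the 2-fold changes in WT and 0 in place of 1 in Smad2KO_Smad3het. Quantile normalization gave 1 call in place of 0 for the Smad3KO and for the WT response difference and 0 in place of 1 for the 2-fold changes in Smad2KO_Smad3het, and 1 probe set per gene gave 1 for the Smad3KO response difference.

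Over all probe sets, the mean response had 1194 higher and 704 lower calls on the 6 arrays. It had 19 and 3 with 8 arrays, 89 and 34 with 8 arrays and quantile normalization, 373 and 142 without the filter, 310 and 93 without trend and robust settings, 632 and 282 without the block, 647 and 291 without WT, 488 and 217 without Smad2KO, 1489 and 1114 without Smad3KO, and 677 and 530 with 1 probe set per gene. Centring moved the Smad2KO level from 110 higher and 83 lower calls to 396 and 70, and the Smad3KO level from 32 and 43 to 398 and 46. The Smad3KO response difference had 6 and 21 calls, against 27 and 73 with centring and 16 and 37 with quantile normalization, and the WT response difference had 3 and 12, against 30 and 61 with centring and 7 and 48 with quantile normalization. With 1 probe set per gene, the calls were 48 and 47 for the Smad2KO level, 21 and 23 for the Smad3KO level, 13 and 23 for the Smad3KO response difference and 1 and 1 for the WT response difference. With 8 arrays, with no filter or without trend and robust settings, the calls of the 2 levels fell to between 0 and 10 in each direction and those of the response differences to 0 or 1.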
